A study of Homo sapiens with 6 samples.

Results

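The ubiquitin C-terminal hydrolase (UCH) family is a small group of deubiquitinases, here UCHL1, UCHL3, UCHL5 and BAP1, and their transcripts were compared between knockdown and control PC9 cells. The 4 genes were taken by symbol from 58174 genes in the deposited table, and all 4 had enough reads to be tested. The family was chosen by the fall of UCHL1 in this same comparison (edgeR adjusted p 0.0148, inside a threshold of 0.05, with UCHL3 the nearest member outside it at 0.158), so the UCHL1 difference is a description and supports nothing here. UCHL3, UCHL5 and BAP1 entered as the other members of the family and not for their values. PC9 is an established human lung adenocarcinoma line. In the knockdown group, 3 libraries, the cells carried an antagomir against tsRNA-5001a, and in the control group, 3 libraries, a negative control antagomir. tsRNAs are fragments of transfer RNAs, and antagomirs are modified oligonucleotides that pair with a small RNA and hinder it. Gene counts do not measure tsRNA-5001a, and the extent of its knockdown is unknown here. Separate cultures are not stated for libraries of 1 group, and p-values then measure only the spread among these libraries, which may be technical.

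Deubiquitinases remove ubiquitin, the small protein tag that marks other proteins for destruction or alters their activity. UCH enzymes are cysteine proteases whose active site lies under a crossover loop, which favours small or unfolded groups attached to the C-terminus of ubiquitin. UCHL1, also called PGP9.5, is abundant in neurons and in neuroendocrine cells, where it is used as a marker, and is expressed in some carcinomas. UCHL3 is its closest relative and also cleaves the ubiquitin-like protein NEDD8. UCHL5 works on the proteasome, bound to ADRM1, and is also part of the INO80 chromatin remodelling complex. BAP1 is a nuclear tumour suppressor that, with ASXL proteins, removes ubiquitin from histone H2A.

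Total gene counts were 32342017 to 40066223 in knockdown libraries and 34623672 to 39615278 in control libraries. Of 19040 genes tested with edgeR, 223 (1.17%) passed an adjusted p of 0.05, of which 209 (1.1%) were higher and 14 (0.0735%) lower after knockdown; with DESeq2 483 were higher and 218 lower. An unadjusted p under 0.05 was found for 3138 genes (16.5%), and 55.9% of tested genes were above 0 and 44.1% below 0 on the log2 scale. The keratin genes KRT8 and KRT18, from a list of 11 epithelial markers, were at 5313 and 2782 TPM on average in knockdown cells. In control cells they were at 4931 and 2607 TPM. Among lung lineage markers, NKX2-1 was at 0.709 TPM in knockdown and 0.080 TPM in control cells. SFTPB had 0 counts in knockdown and 2 counts in control libraries summed. Of the 11 epithelial markers listed, NAPSA included, 1 was under 1 TPM in all 6 libraries. Of the 10 tested, 0 passed with edgeR (lowest adjusted p 0.220).

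UCHL1 (ENSG00000154277) spans chr4:41256413-41268455 (plus strand) in the table, whose coordinates match GRCh38. Its first 315 bases overlap the antisense gene UCHL1-AS1. The 250 bases before the RefSeq start of UCHL1 (GRCh38.p14, chr4:41256678-41256927, plus strand) are shown because the starts of UCHL1 and UCHL1-AS1 are close together there, and those before the upstream RefSeq start of UCHL3 (chr13:75549252-75549501, plus strand) because UCHL3 is the nearest relative. Both run 5′ to 3′, with CG dinucleotides in capitals.
UCHL1: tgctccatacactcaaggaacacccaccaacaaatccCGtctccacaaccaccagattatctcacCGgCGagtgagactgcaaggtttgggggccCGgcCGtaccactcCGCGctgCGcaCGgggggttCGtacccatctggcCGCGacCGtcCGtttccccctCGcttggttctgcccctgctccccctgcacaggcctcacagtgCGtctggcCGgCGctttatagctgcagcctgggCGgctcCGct
UCHL3: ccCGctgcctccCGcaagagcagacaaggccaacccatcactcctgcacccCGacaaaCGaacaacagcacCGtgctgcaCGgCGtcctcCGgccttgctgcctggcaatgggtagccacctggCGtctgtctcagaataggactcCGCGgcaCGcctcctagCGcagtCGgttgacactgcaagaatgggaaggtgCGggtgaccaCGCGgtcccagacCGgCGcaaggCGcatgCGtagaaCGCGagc
The UCHL1 window held 20 CG dinucleotides and the printed UCHL3 window 23, against a median of 11 over 35116 RefSeq promoter windows of the same length. Of those windows, 32.4% held at least as many as UCHL1 and 25.8% at least as many as the printed UCHL3 window. UCHL1-AS1 begins, on the opposite strand, at base 50 of the UCHL1 window. The UCHL1 window held GGGCGG on the printed strand and TATAA on the opposite strand, and neither CCAAT nor its complement. The printed UCHL3 window held none of the 3 on either strand. The other RefSeq window of UCHL3 (chr13:75549541-75549790, plus strand), not printed, had 20 CG dinucleotides, GGGCGG on the plus strand and CCAAT on the opposite strand. Over all windows, on either strand, GGGCGG was present in 42.6%, TATAA in 18.9% and CCAAT in 32.01%. A match is a description of letters and not a site. RefSeq windows matched 3 of the 4 members, all but BAP1.

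UCHL1 was the most abundant of 86 listed deubiquitinase genes in all 6 libraries. Its level was 347, 340 and 301 TPM in knockdown libraries 1 to 3, and 535, 579 and 561 TPM in control libraries 1 to 3. TPM is the authors' length-corrected unit and allows levels of different genes to be compared. The groups did not overlap, and the highest knockdown library was below the lowest control library by more than the spread within either group. By mean TPM UCHL1 ranked 379 in knockdown and 216 in control cells among all genes in the table. In counts scaled to library size (CPM, by TMM), UCHL1 was at 198, 182 and 175 CPM in knockdown and 327, 404 and 340 CPM in control libraries. UCHL1 was 1.93-fold lower in knockdown cells, which is -0.95 ± 0.12 (SE) as log2 fold change. On the log2 scale of deposited TPM plus 1 it was -0.76, with the median of all tested genes at 0.21 on that scale and 0.05 in CPM. In bulk RNA, fewer cells with the transcript and less transcript per cell cannot be told apart.

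**Figure D1:**
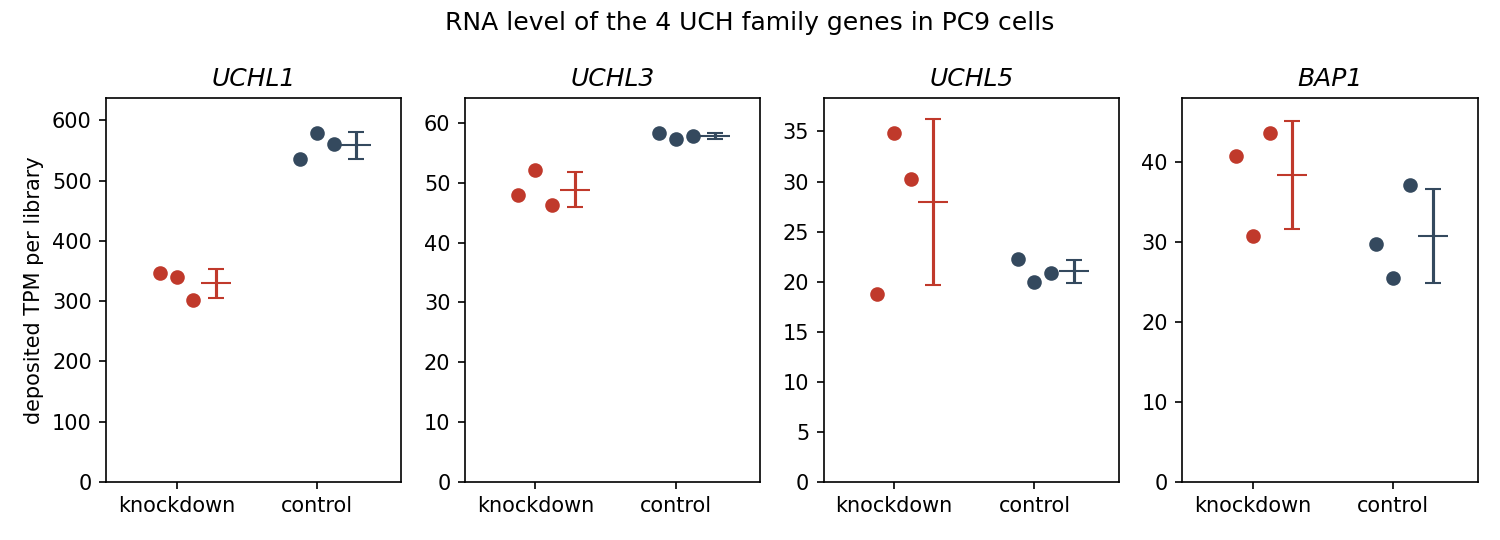
Deposited TPM of the 4 UCH genes in each library, knockdown in red on the left and control in dark blue on the right of each panel, with mean ± SD (n = 3 each) beside the points and axes that start at 0. UCHL1 lies at 301 to 347 TPM in knockdown and 535 to 579 TPM in control libraries, while the BAP1 groups overlap.

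UCHL1-AS1, the antisense gene at this start, had 2 counts in knockdown library 3 and 0 in every other library. Use of strand in the counting was not stated, so reads in the overlap cannot be assigned to a strand. The nearest tested genes on either side, at 39698 and 91151 bases, were APBB2 and LIMCH1. APBB2, which encodes an adaptor that binds the amyloid precursor protein, had 0.25 ± 0.14 (SE) as log2 fold change, and its edgeR adjusted p was 0.415. LIMCH1, which encodes an activator of non-muscle myosin, had 0.15 ± 0.14 (SE), and its edgeR adjusted p was 0.634. Neither neighbour passed, and both values were above 0, where UCHL1 was below it.

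UCHL3 (ENSG00000118939; chromosome 13, 75549480 to 75606020, plus strand) was at 22.2, 22.7 and 20.9 CPM in knockdown libraries and 28.6, 32.7 and 29.6 CPM in control libraries. All knockdown libraries lay below all control libraries. Of all tested genes 24.3% had groups without overlap, and for 10.8% the knockdown libraries were the lower ones, so separation alone is common here. Its log2 fold change was -0.47 ± 0.13 (SE), and the gene did not pass (edgeR adjusted p 0.158). DESeq2 gave UCHL3 -0.50 with an adjusted p of 0.0496, and the adjusted p of UCHL3 ran from 0.0496 to 0.397 over the 15 alternatives. In deposited TPM the means were 48.8 ± 2.94 in knockdown cells and 57.8 ± 0.528 in control cells (SD, n = 3 each).

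UCHL3 shares its place with other genes. AL137782.1 covers 56248 of its bases on the same strand, so the division of reads between them is uncertain. AL137782.1 was at 5.28, 13.4 and 8.76 CPM in knockdown libraries and 3.98, 4.25 and 3.87 CPM in control libraries, all knockdown libraries being higher (log2 fold change 1.18, edgeR adjusted p 0.136). AL137782.1 passed with DESeq2 (adjusted p 0.0115) and without knockdown library 1 (edgeR adjusted p 0.0491), and its log2 fold change ran from 0.79 without knockdown library 2 to 1.40 without knockdown library 1. LMO7-AS1, which overlaps it by 1321 bases on the opposite strand, had 11 to 17 counts in knockdown and 17 to 18 counts in control libraries. COMMD6, a gene of the COMM domain family that lies 40 bases away on the opposite strand, was at 38.6 ± 1.66 CPM in knockdown and 52.2 ± 2.68 CPM in control cells (SD, n = 3 each) (log2 fold change -0.43, edgeR adjusted p 0.150). LMO7, the next tested gene above, was at 0.25 on the log2 scale (edgeR adjusted p 0.394).

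UCHL5 (ENSG00000116750; chromosome 1, 193012250 to 193060080, minus strand) was at 22.8, 38.4 and 28.5 CPM in knockdown libraries and 28.1, 28.4 and 29.5 CPM in control libraries. Knockdown library 1 was the lowest and knockdown library 2 the highest of all 6, and the control libraries lay between them. The coefficient of variation was 26.4% in knockdown and 2.64% in control cells. Its log2 fold change was 0.06 ± 0.19 (SE) (edgeR adjusted p 0.908), and it was -0.17 without knockdown library 2. TROVE2, an RNA-binding protein gene that overlaps UCHL5 by 659 bases on the opposite strand, was at 9.09, 27.1 and 18.8 CPM in knockdown and 15.0, 16.2 and 13.9 CPM in control libraries. It too was lowest in knockdown library 1 and highest in knockdown library 2. SCARNA18B, a small RNA gene inside UCHL5, had 1 count in knockdown library 1 and 0 in every other library. The nearest tested genes beyond were AL136370.1 (log2 fold change 0.22, edgeR adjusted p 0.858) and RGS2, a regulator of G protein signalling (0.83, edgeR adjusted p 0.157).

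BAP1 (ENSG00000163930; chromosome 3, 52401013 to 52410350, minus strand) was at 58.0, 42.2 and 72.6 CPM in knockdown libraries and 51.3, 45.3 and 70.8 CPM in control libraries. Within each group library 2 was the lowest and library 3 the highest, and the groups overlapped almost fully. Its log2 fold change was 0.05 ± 0.23 (SE) (edgeR adjusted p 0.942), and its sign turned when knockdown library 3, control library 1 or control library 2 was left out (-0.16, -0.02 and -0.09). The coefficient of variation was 26.4% in knockdown and 23.9% in control cells. The size of change that these libraries could detect was not tested, so the lack of a call does not show that BAP1 was unchanged. No gene of the table overlaps BAP1. Its neighbours DNAH1, an axonemal dynein gene 521 bases away, and PHF7, 306 bases away, had log2 fold changes of 0.03 and -0.13 (edgeR adjusted p 0.968 and 0.797).

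By deposited TPM the order within the family was UCHL1, UCHL3, BAP1 and UCHL5 in both groups. UCHL1 and UCHL3 were far apart in every library, and UCHL3 was above BAP1 in every library. BAP1 at 40.7, 30.8 and 43.7 TPM and UCHL5 at 18.8, 34.9 and 30.2 TPM overlapped in knockdown cells. In control cells BAP1 at 29.7, 25.5 and 37.1 TPM stood above UCHL5 at 22.3, 20.0 and 20.9 TPM. UCHL1 made up 76.3%, 74.2% and 71.5% of the family's summed TPM in knockdown libraries and 82.9%, 84.9% and 82.9% in control libraries. The sum over the family was 454, 457 and 422 TPM in knockdown libraries and 646, 682 and 676 TPM in control libraries. Without UCHL1 it was 107 to 120 TPM in knockdown and 103 to 116 TPM in control libraries, and those ranges overlapped. These sums depend on the unit, as the median log2 fold change of all tested genes was 0.21 on TPM and 0.05 in CPM. UCHL3, UCHL5 and BAP1 were at -0.24, 0.35 and 0.31 on TPM, against -0.47, 0.06 and 0.05 in CPM.

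The deposited FPKM hold a second piece of information, the transcript length the authors used in each library. On the assumption that FPKM was scaled by the library total, counts and FPKM gave an implied length for UCHL1 of 1266, 1279 and 1367 bases in knockdown libraries and 1285, 1288 and 1240 bases in control libraries. For UCHL3 it was 1042 ± 15.0 bases in knockdown and 1045 ± 12.4 bases in control cells (SD, n = 3 each). For UCHL5 it was 2697, 2631 and 2213 bases in knockdown libraries and 2657, 2628 and 2891 bases in control libraries. For BAP1 it ranged from 3163 to 3912 bases in knockdown and from 3290 to 3906 bases in control libraries. The groups overlapped for all 4 genes. Over 13395 genes with at least 50 counts in every library, the median ratio of longest to shortest was 1.15, so such movement is common in this table. The sources do not state how these lengths were set.

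The family was set beside the deubiquitinases of other families. Of 82 other listed deubiquitinases, 75 were tested and 0 passed in either direction with edgeR, where 1.17% of all genes did. At an unadjusted p under 0.05 there were 11 of 75, where 16.5% of all tested genes were, so this count is no larger than the background, and DESeq2 and limma-voom also called 0. Their median log2 fold change was 0.10, against 0.05 for all tested genes, and 27 of 75 were below 0. Values ran from -0.47 to 0.84. UCHL1 lay below all of them, which is no support because it was chosen for its fall. UCHL3 (-0.47) lay next to the lowest. Knockdown libraries were lower without overlap for 8 of the 75 and higher for 9, where 10.8% and 13.4% of all tested genes were.

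**Figure D2:**
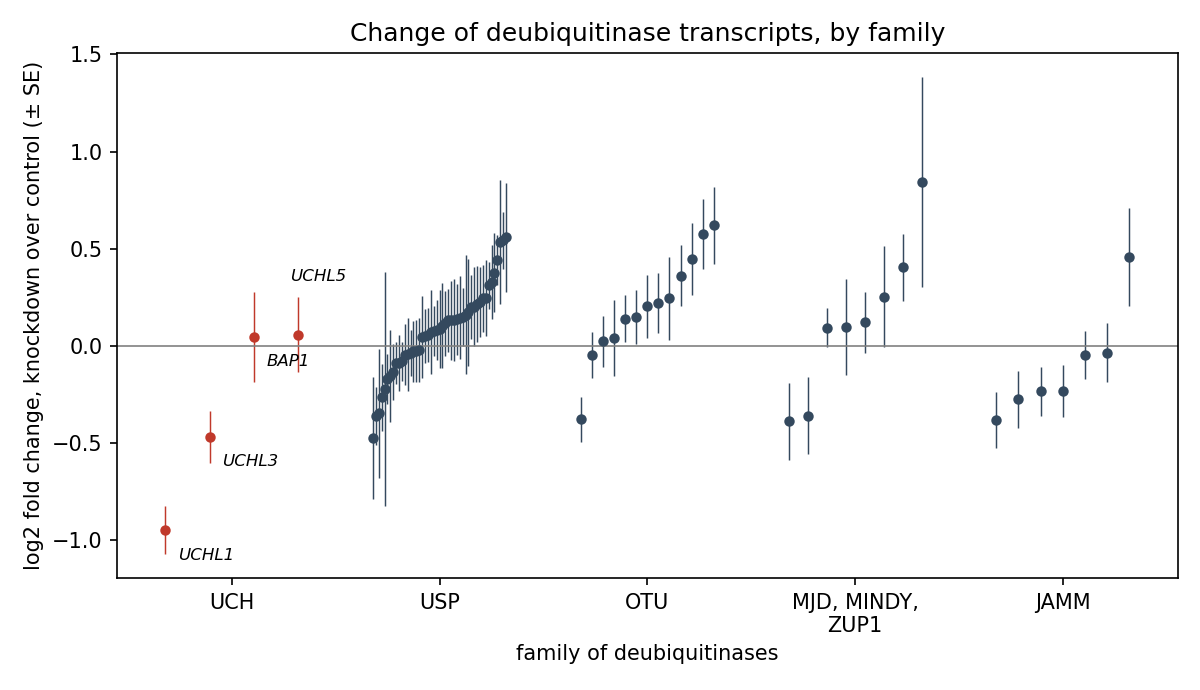
Log2 fold change (knockdown over control, ± SE from edgeR) of each tested deubiquitinase transcript, sorted within its family, with the 4 UCH genes in red. UCHL1, chosen for its fall, is the lowest point at -0.95, and the other families lie between -0.47 and 0.84.

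Of 47 tested genes of the ubiquitin-specific protease (USP) family, the largest family of cysteine deubiquitinases, 30 were above 0, where 55.9% of all tested genes were. In the USP family 0 passed (edgeR lowest adjusted p 0.141). At an unadjusted p under 0.05 there were 4 of 47, where 16.5% of all tested genes were. Knockdown libraries were lower without overlap for 2 USP genes and higher for 3, where 10.8% and 13.4% of all tested genes were. The most abundant USP members were USP40, USP22, a deubiquitinase of the SAGA complex, and USP5, which takes apart free ubiquitin chains. They had log2 fold changes of -0.08, -0.09 and -0.17 (edgeR adjusted p 0.726, 0.726 and 0.552). CYLD, which trims chains in NF-kB signalling and was singled out after its values were seen, was at 37.1, 48.0 and 49.1 CPM in knockdown and 30.7, 29.9 and 31.4 CPM in control libraries. Its log2 fold change was 0.54 (edgeR adjusted p 0.141), and on deposited TPM it was 1.08 with a limma adjusted p of 0.0324, the adjusted p running from 0.0324 to 0.375 over all alternatives.

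Of 13 tested genes of the ovarian tumour (OTU) family, 11 were above 0, where 55.9% of all tested genes were. The 13 had a median of 0.20, and 0 passed (edgeR). At an unadjusted p under 0.05 were 5 of 13, where 16.5% of all tested genes were. Knockdown libraries were lower without overlap for 1 of the 13 and higher for 4, where 10.8% and 13.4% of all tested genes were. OTUB1, a highly abundant member that also restrains ubiquitin-conjugating enzymes, was one of the 2 below 0. It was at 66.2, 57.0 and 65.7 CPM in knockdown and 81.3, 82.3 and 81.9 CPM in control libraries (log2 fold change -0.38, edgeR adjusted p 0.187). OTUD1 had -0.05 and OTUD5 0.02 on the log2 scale (edgeR adjusted p 0.873 and 0.945).

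Of 8 tested genes of the Josephin, MINDY and ZUP1 families 6 were above 0, where 55.9% of all tested genes were. Of the 8, 0 passed (edgeR), and 1 had an unadjusted p under 0.05, where 16.5% of all tested genes had. Knockdown libraries were lower without overlap for 1 of the 8 and higher for 2, where 10.8% and 13.4% of all tested genes were. JOSD1 had a log2 fold change of 0.09, JOSD2 of -0.39 and MINDY1 of 0.12 (edgeR adjusted p 0.685, 0.374 and 0.737). Of 7 JAMM metalloproteases, which use zinc in place of a cysteine, 6 were below 0, where 44.1% of all tested genes were. The 7 had a median of -0.23, and 0 passed (edgeR). At an unadjusted p under 0.05 there was 1 of 7, where 16.5% of all tested genes were. Knockdown libraries were lower without overlap for 4 of the 7 and higher for 0, where 10.8% and 13.4% of all tested genes were. PSMD14, the deubiquitinase of the proteasome lid, was at 66.9, 82.2 and 77.4 CPM in knockdown and 83.2, 92.5 and 90.6 CPM in control libraries (log2 fold change -0.23, edgeR adjusted p 0.399). COPS5, which removes NEDD8 from cullins, had -0.03 and STAMBP, which acts on endosomes, -0.05 on the log2 scale (edgeR adjusted p 0.929 and 0.881).

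Genes that encode ubiquitin itself, as fusions that deubiquitinases must cut, were all below 0 (4 of 4), and 0 passed with edgeR, while 3 of 4 had an unadjusted p under 0.05. Of all tested genes 44.1% were below 0 and 16.5% had an unadjusted p under 0.05. UBB, a polyubiquitin gene, was at 365, 278 and 329 CPM in knockdown and 379, 477 and 434 CPM in control libraries (log2 fold change -0.41, edgeR adjusted p 0.216). RPS27A, whose ubiquitin is fused to a ribosomal protein, was at 680, 805 and 766 CPM in knockdown and 830, 1058 and 907 CPM in control libraries (log2 fold change -0.31, edgeR adjusted p 0.266). Knockdown libraries were lower without overlap for both of these genes, and for 3 of the 4 in all, where 10.8% of all tested genes were. The 4 genes summed to 3726 to 4059 TPM in knockdown and 4286 to 4606 TPM in control libraries.

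Among 33 ubiquitin-activating and ubiquitin-conjugating enzymes 0 passed with edgeR and the median was 0.01. At an unadjusted p under 0.05 there were 5 of 33, no larger than the 16.5% of all tested genes. UBE2C, the conjugating enzyme of the anaphase-promoting complex, was at 148, 132 and 148 CPM in knockdown and 196, 219 and 185 CPM in control libraries. Its log2 fold change was -0.48 (edgeR adjusted p 0.118). DESeq2 gave UBE2C an adjusted p of 0.0332 and called 1 of the 33, with the adjusted p from 0.0332 to 0.316 over all alternatives. UBE2S, which extends the chains UBE2C begins, had -0.37 and UBE2E1 0.06 on the log2 scale (edgeR adjusted p 0.213 and 0.875).

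Partners of the individual members were examined by the same fit. For UCHL3, 18 tested genes of the NEDD8 and cullin pathway were divided evenly, 9 above and 9 below 0. Of all tested genes 55.9% were above 0. Of the 18, 0 passed with edgeR, and 1 had an unadjusted p under 0.05, where 16.5% of all tested genes had. NEDD8 itself was at 69.7, 63.5 and 72.3 CPM in knockdown and 69.7, 107 and 90.1 CPM in control libraries (log2 fold change -0.37, edgeR adjusted p 0.308). The scaffold gene CUL1 and the ring subunit gene RBX1 had -0.29 and -0.31 on the log2 scale (edgeR adjusted p 0.452 and 0.321).

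For UCHL5, 12 of 17 genes of its proteasome dock and the INO80 complex were below 0, where 44.1% of all tested genes were. The 17 had a median of -0.18, and 0 passed with edgeR. At an unadjusted p under 0.05 there were 3 of 17, where 16.5% of all tested genes were. ADRM1, the receptor that holds UCHL5 on the proteasome, was at 199, 141 and 196 CPM in knockdown and 197, 243 and 220 CPM in control libraries (log2 fold change -0.30, edgeR adjusted p 0.393). PSMD2, a base subunit of the proteasome, and RUVBL2, an ATPase of INO80, had -0.29 and -0.35 on the log2 scale (edgeR adjusted p 0.280 and 0.304). Library 2 was the lowest knockdown library for all 3, where UCHL5 was highest. Over all tested genes, knockdown library 2 also differed most from the rest of its group. Its pairs with libraries 1 and 3 had a chi-square per degree of freedom of 83.3 and 58.0, against 33.9 between libraries 1 and 3. A link between UCHL5 and these 3 genes was not tested.

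For BAP1, 9 tested partners had a median of 0.04 and 0 passed with edgeR, nor did any have an unadjusted p under 0.05. OGT, the O-GlcNAc transferase, FOXK2, a forkhead factor that recruits BAP1, and ASXL1, which activates it, had log2 fold changes of -0.00, -0.02 and 0.12 (edgeR adjusted p 0.994, 0.957 and 0.625). Polycomb repressive complex 1 attaches the H2A ubiquitin that BAP1 removes. Of its 19 genes 11 were above 0, where 55.9% of all tested genes were, and 0 passed with edgeR. At an unadjusted p under 0.05 there were 2 of 19, where 16.5% of all tested genes were. The PRC1 genes summed to 588 to 644 TPM in knockdown and 465 to 535 TPM in control libraries, and the BAP1 partners to 282 to 292 TPM in knockdown and 200 to 267 TPM in control libraries, without overlap in both lists, on the TPM scale, where the median of all tested genes is at 0.21 as log2 fold change. CBX6 and BMI1 had -0.03 and 0.27 on the log2 scale (edgeR adjusted p 0.928 and 0.673).

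UCHL1 is used as a neuroendocrine marker, so 16 other neuronal and neuroendocrine genes were read beside it. Of these 12 were under 1 TPM in all 6 libraries and 7 had no count in any, among them INSM1 and NEUROD1, transcription factors of neuroendocrine cells. CHGA had 2 counts summed over knockdown libraries and 2 over control libraries. The whole list summed to 105 to 121 TPM in knockdown and 81.9 to 134 TPM in control libraries. Most of this was ENO2, neuron-specific enolase, at 0.28 on the log2 scale (edgeR adjusted p 0.359). Of 6 tested members 1 rose and 0 fell, where 1.1% and 0.0735% of all tested genes did, and 5 were above 0, where 55.9% of all were. DDC, aromatic L-amino acid decarboxylase, rose to 41, 57 and 55 counts in knockdown libraries, against 4, 0 and 6 in control libraries (log2 fold change 3.84, edgeR adjusted p 0.0343). This call depends on the processing: DDC was past the test in 8 of 14 alternatives, with adjusted p up to 0.160. It was lost without any 1 library other than control library 2 (edgeR adjusted p 0.0692 to 0.124), where its log2 fold change ran from 3.32 to 4.49 over all 6 such fits, and it was 1.38 on deposited TPM. TUBB3, a neuronal tubulin, was below 0 (-1.42, edgeR adjusted p 0.327), at 9.22, 6.89 and 14.5 CPM in knockdown and 60.5, 11.96 and 9.53 CPM in control libraries, where control library 1 stood apart. The part of these markers in the UCHL1 difference was not tested.

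Markers of other cell types were also low. Fibroblast markers summed to 15.5 to 26.3 TPM in knockdown and 10.5 to 13.9 TPM in control libraries, with 4 of 7 under 1 TPM everywhere. PDGFRB, a growth factor receptor of mesenchymal cells, was the 1 of 3 tested that rose, where 1.1% of all tested genes did. PDGFRB was at 6.38 ± 1.81 CPM in knockdown and 0.835 ± 0.183 CPM in control cells (SD, n = 3 each), with an edgeR adjusted p of 0.00502. Its log2 fold change was 2.92, and 1.55 on deposited TPM. On that scale, which the sums given here also use, the median of all tested genes was 0.21. Immune markers summed to 4.42 to 5.71 TPM in knockdown and 3.17 to 3.47 TPM in control libraries, and endothelial markers to 17.0 to 24.4 TPM in knockdown and 12.1 to 18.6 TPM in control libraries. Of 2 immune and 3 endothelial markers tested, 0 passed with edgeR, and 0 had an unadjusted p under 0.05. Of 10 tested epithelial markers 0 passed (edgeR), and 1 had an unadjusted p under 0.05, where 16.5% of all tested genes had. The 11 listed summed to 12405 to 15949 TPM in knockdown and 13339 to 14117 TPM in control libraries.

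Genes that moved across the 6 libraries most like each member were found among 10832 genes of at least 3 log2 CPM, by the root mean square difference of log2 CPM after subtracting each gene's mean. They resemble the member by construction, so their differences are descriptions. Nearest to UCHL1 were DCP2, an mRNA decapping enzyme (difference 0.12), TYMS, thymidylate synthase (0.13), NDUFB2 (0.14) and NDUFA6 (0.15), both subunits of respiratory complex I, and EEF1D, a subunit of the translation elongation factor complex (0.15). DCP2 was at 14.9, 13.0 and 16.04 CPM in knockdown and 25.2, 31.1 and 24.5 CPM in control libraries. TYMS was at 29.7, 26.3 and 29.3 CPM in knockdown and 45.3, 50.2 and 46.9 CPM in control libraries. Like UCHL1, both were highest in control library 2, while UCHL1 alone of the 3 was lowest in knockdown library 3.

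Nearest to UCHL3 were EIF3L, a translation initiation factor subunit (0.04), the actin-binding gene TMSB4X (0.04) and the aldo-keto reductase gene AKR1C3 (0.04). They had log2 fold changes of -0.45, -0.40 and -0.50, against -0.47 for UCHL3. Nearest to UCHL5 were EIF3E, another subunit of the same initiation factor (0.02), GTF2H2 of transcription factor TFIIH (0.02) and NOC3L, a ribosome biogenesis factor (0.03). All 3 shared the order of UCHL5, lowest in knockdown library 1 and highest in knockdown library 2, with EIF3E at 270, 445 and 334 CPM in knockdown and 326, 344 and 350 CPM in control libraries. Nearest to BAP1 were the ARF family gene ARF4 (0.14), the protease gene PRSS27 (0.14) and TNFAIP8 (0.14). These distances were larger than those of UCHL3 and UCHL5.

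**Figure D3:**
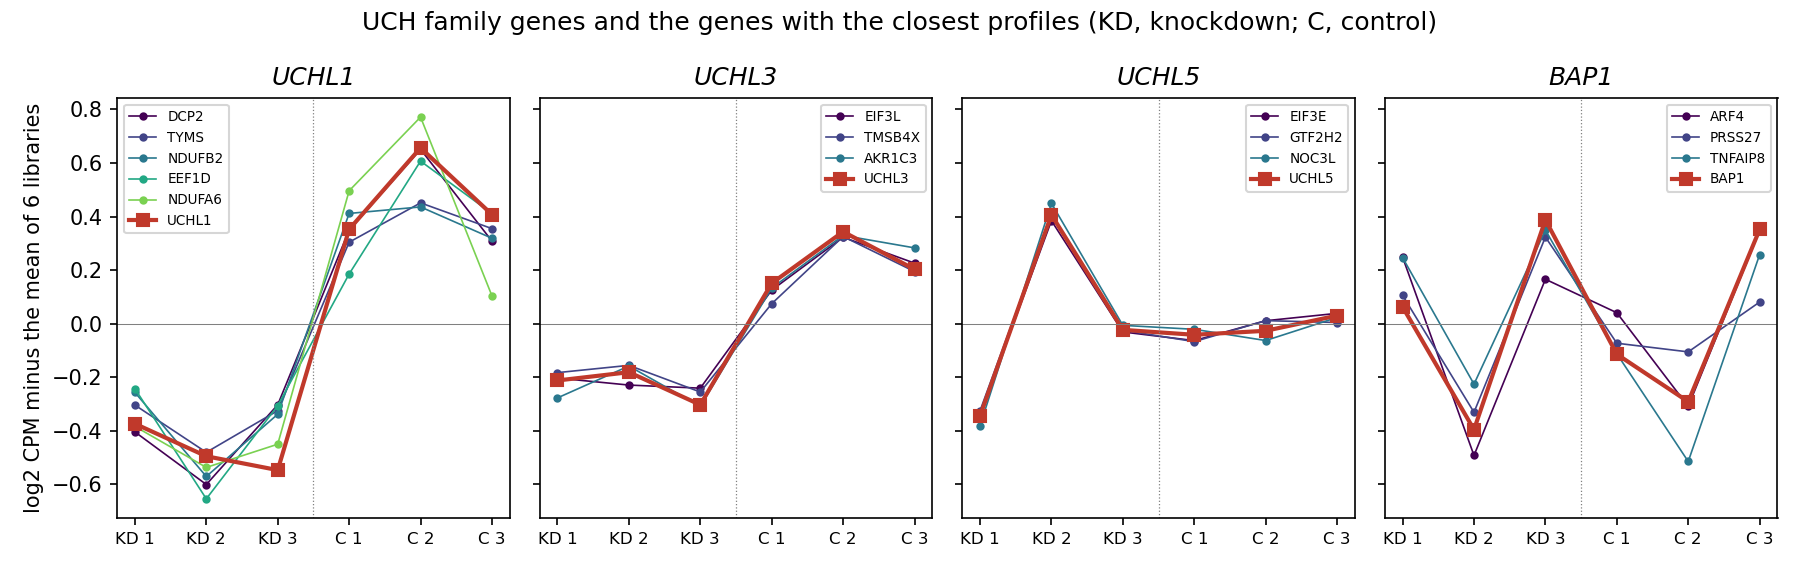
Log2 CPM of each UCH gene (thick red squares) and its nearest genes in the 6 libraries, knockdown (KD) left of the dotted line and control (C) right of it, each gene with its own mean subtracted. UCHL1 and UCHL3 are below 0 in all knockdown and above 0 in all control libraries, UCHL5 peaks in knockdown library 2, and BAP1 is high in library 3 and low in library 2 of both groups.

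**Figure D4:**
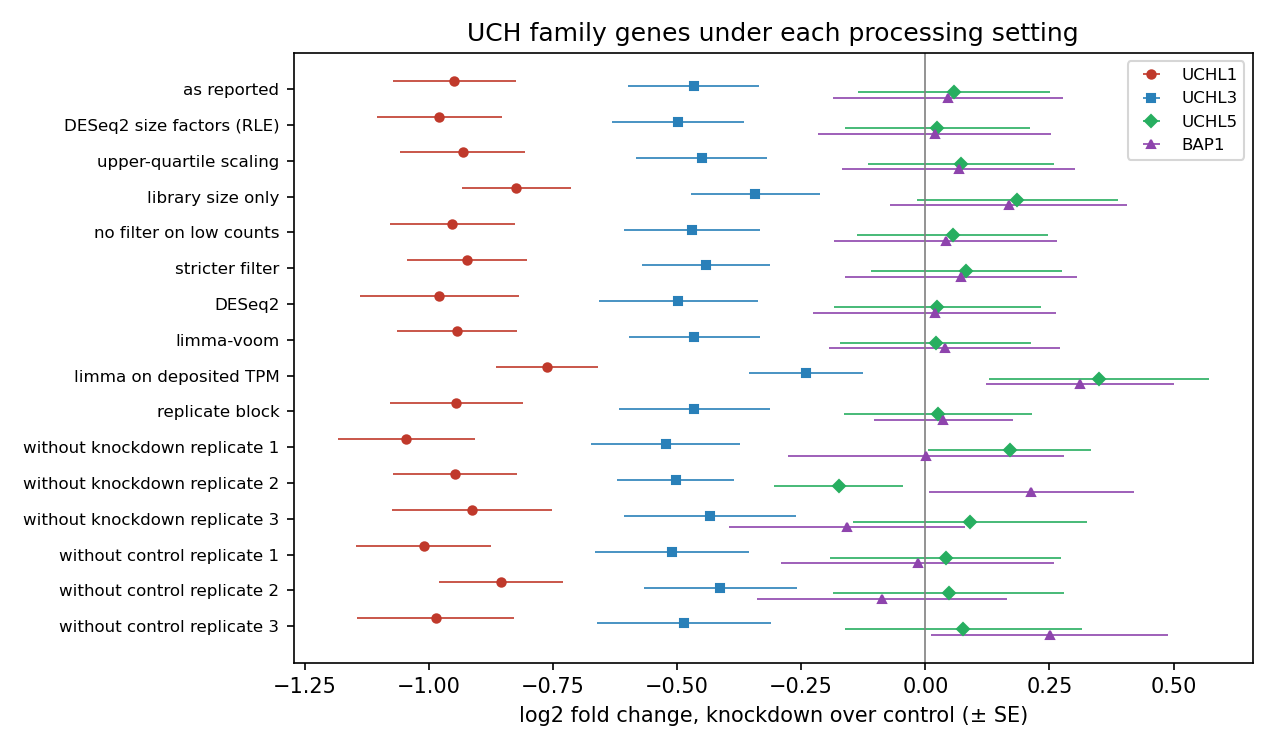
Log2 fold change (knockdown over control, ± SE) of the 4 UCH genes as reported and under 15 alternative settings, one per line. UCHL1 runs from -1.05 to -0.76 and UCHL3 from -0.52 to -0.24, while UCHL5 and BAP1 lie on both sides of 0.

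The size of the UCHL1 difference was set beside the processing as a description. Over the 15 alternatives the log2 fold change of UCHL1 stayed between -1.05 and -0.76, the value nearest 0 being that on deposited TPM. UCHL3 stayed between -0.52 and -0.24. UCHL5 ran from -0.17 to 0.35 and BAP1 from -0.16 to 0.31, so no direction can be given for either.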

How the data were processed

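RNA of PC9 cells was sequenced in 6 libraries. Per the labels' protocols, the authors checked read quality, mapped reads of an Illumina platform to a reference genome and counted reads per gene. For each gene and library the authors deposited raw counts, TPM and FPKM. Aligner, counting program and strand setting: not given in the sources used here. hg19 is named in the submitters' processing notes, but 96.9% of 57836 gene positions equal those of GENCODE 29 on GRCh38, the 4 members included. Printed coordinates are the table's.

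Genes were kept by filterByExpr (minimum count 10), scaled by TMM and tested with edgeR 4.0.16 (quasi-likelihood, R 4.3.3) over 19040 genes, with Benjamini-Hochberg adjustment and a threshold of 0.05. Standard errors were derived from the F statistic. CPM use TMM-scaled library totals. The biological coefficient of variation was 22.9%, and libraries of a group differed beyond sampling noise (chi-square per degree of freedom 32.4 to 83.3). Alternatives used limma 3.58.1, with a pseudocount of 1 on TPM, and DESeq2 1.42.0. The fit was tested on simulated data. Total counts set the counting error, which was not compared with the spread between libraries for each member. Plots used Python 3.11.15 and matplotlib 3.10.9.

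The members, the 10 pathway lists and the 5 marker lists were chosen with earlier results of these data known. List genes were matched by symbol (231) or gene ID (1). Named were the members, list genes past the test, the 3 genes of each pathway list highest in TPM, overlapping or adjacent genes, and the 5 (UCHL1) or 3 (others) nearest profiles. CYLD, and marker genes beyond those past the test, were added after their values were seen. Some genes that this rule names are not reported here. Promoter windows came from RefSeq, GRCh38.p14.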

Additional observations from a re-analysis of the deposited data

How the results depend on the processing

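Against 223 genes past the test, counts were 147 with no filter, 143 with a stricter filter (minimum 50), 701 with DESeq2, 397 with limma on deposited TPM and 34 with the replicate number as a block, and 64 to 114 without 1 library. Deviations from the group means of libraries that carry the same number correlated at 0.01, -0.08 and -0.03, which gives no pairing by number. Under the block the UCHL1 log2 fold change was -0.94. UCHL1 was past the threshold in 12 of 15 alternatives, the others being the block and the fits without knockdown library 3 or control library 3, and its value ran from -1.05 to -0.85 over the fits without 1 library. DESeq2 gave UCHL3 -0.50, called, which makes 2 members past the test, and under the block there were 0. Of the pathway lists, USP genes had 1 call on deposited TPM and ubiquitin enzymes 1 with DESeq2. All other settings gave 0 in these lists.

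Values of some genes that did not pass the test changed sign with the scaling, the filter, the tool or the unit. With library size only (median of all genes 0.17) log2 fold changes were 0.077 for ARF4, 0.087 for CBX6, 0.094 for COPS5, 0.10 for FOXK2, 0.12 for OGT, 0.076 for OTUD1, 0.076 for STAMBP, 0.035 for USP22 and 0.044 for USP40. On deposited TPM (median 0.21) they were 0.18 for ARF4, 0.20 for CBX6, 0.19 for COPS5, -0.037 for DNAH1, 0.20 for FOXK2, 0.030 for LMO7-AS1, 0.29 for OGT, 0.17 for OTUD1, 0.37 for PHF7, 0.024 for PSMD2, 0.068 for STAMBP, 0.12 for USP22, 0.10 for USP40 and 0.10 for USP5. DNAH1 was at -0.0031 and OTUD5 at -0.0046 with DESeq2 size factors, and they were at -0.0031 and -0.0045 with DESeq2. FOXK2 was at 0.0003 and OGT at 0.012 with upper-quartile scaling, and at 0.0065 and 0.022 with the stricter filter.

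Without 1 library, values ran from -0.17 to 0.17 for UCHL5, -0.16 to 0.25 for BAP1, -0.32 to 0.66 for AL136370.1, -0.22 to 0.14 for ARF4, -0.18 to 0.036 for CBX6, -0.12 to 0.037 for COPS5, -0.17 to 0.30 for DNAH1, -0.18 to 0.15 for EIF3E, -0.16 to 0.074 for FOXK2, -0.16 to 0.17 for GTF2H2, -0.0069 to 0.21 for MINDY1, -0.17 to 0.21 for NOC3L, -0.12 to 0.12 for OGT, -0.073 to 0.10 for OTUD5, -0.067 to 0.24 for PRSS27, -0.12 to 0.56 for TROVE2 and -0.094 to 0.13 for UBE2E1. The cause of these shifts was not tested.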
